A study of Homo sapiens with 6 samples.

Results

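The miR-34 family consists of 3 microRNA genes, MIR34A, MIR34B and MIR34C, and each hairpin gives a 5p and a 3p arm: hsa-miR-34a-5p, hsa-miR-34a-3p, hsa-miR-34b-5p, hsa-miR-34b-3p, hsa-miR-34c-5p and hsa-miR-34c-3p. These 6 arms, chosen by name, had 1 probe each among the 2019 human miRNA probes of the array. The cells were HuH7, a human line established from a hepatocellular carcinoma and grown in MEM with fetal bovine serum. The cisplatin group received 1 µg/ml of the drug, a platinum compound that crosslinks DNA, and the control group received none, both over 24 h. Total RNA of 3 cisplatin and 3 control samples was labelled with Hy5 and hybridised to 1-colour arrays, 1 array per sample. All 6 samples come from 1 cell line. The labels do not say that samples of a group were separate cultures, so the p-values cover the spread among these samples alone, and part or all of it could be technical.

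MicroRNAs are short RNAs that pair with messenger RNAs through their seed, the bases from position 2 to 8, and lower the output of those messages. DNA damage is known to raise miR-34 in many cell types. Known targets of the family include MYC, MET, BCL2, CDK4, CDK6 and SIRT1, which places it among brakes on the cell cycle and on survival. miR-34a is broadly expressed, while miR-34b and miR-34c are known as abundant in ciliated epithelium, lung and testis.

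RefSeq sequences were found for 5 of the 6 arms and for 4 of 5 arms of miR-449, a related family. The arms without one were miR-34c-5p and miR-449c-3p, so the comparisons of sequence below leave them out. The sequences are shown because the 5p arms of miR-34a and miR-34b are close in sequence, while the results below differ between them. Capitals mark the seed, and sequences run 5′ to 3′.
miR-34a-5p: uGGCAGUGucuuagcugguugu
miR-34b-5p: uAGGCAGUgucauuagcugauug
miR-449a: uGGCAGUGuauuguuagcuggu
miR-449b-5p: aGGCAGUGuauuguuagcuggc
miR-449c-5p: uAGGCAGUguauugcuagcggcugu
miR-34a-3p: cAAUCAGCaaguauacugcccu
miR-34b-3p: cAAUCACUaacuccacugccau
miR-34c-3p: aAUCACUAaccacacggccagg
In these sequences miR-34a-5p shares its seed with miR-449a and miR-449b-5p. miR-34c-5p is known to share that seed too, but is not among the sequences compared. The seed of miR-34b-5p is shifted by 1 base and is shared by miR-449c-5p and by miR-2682-5p. No other human mature miRNA of the RefSeq table has the seed of any of the 3p arms shown for miR-34. miR-34a-5p and miR-34b-5p differ by 4 edits (substitutions, insertions or deletions) over 22 and 23 bases, with a longest shared run of 9 bases. Among all other probes whose sequence was matched, miR-34b-5p was the closest in sequence to miR-34a-5p, followed by miR-449a at 6 edits and miR-449c-5p at 7.

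The genes lie at 2 loci in GRCh38.p14. The MIR34A hairpin is on the minus strand of chromosome 1 (chr1:9151668-9151777), inside the lncRNA gene MIR34AHG. The MIR34B hairpin (chr11:111512938-111513021) and the MIR34C hairpin (chr11:111513439-111513515) are on the plus strand of chromosome 11, 417 bases apart, and both overlap the lncRNA gene MIR34BHG and the protein-coding gene BTG4. The mature arms miR-34b-5p and miR-34c-5p are known to come from 1 shared primary transcript, while miR-34a has its own.

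A probe counted as detected where its foreground intensity exceeded a limit set on each array, 2 SD over the mean of its 925 blank spots. These limits stood at 208.6, 246.5 and 227.4 on the cisplatin arrays 1, 2 and 3, and 220.1, 239.8 and 228.1 on the control arrays. On average 2.24% of the blank spots themselves lay above the limit. Between 329 and 713 human probes were detected on cisplatin arrays and between 500 and 738 on control arrays, with cisplatin replicate 2 the lowest, and its blank spots had the widest SD, 17.97. Hepatocyte markers were present, as 6 of 6, among them miR-122-5p, the dominant miRNA of liver, were detected on all 6 arrays. Of all 2019 human probes, 243 were detected on all 6 arrays. Among markers of other cells this held for 0 of 7 blood, 0 of 4 muscle and 0 of 5 ciliated epithelial probes. It held for 1 of 5 neural and 3 of 7 endothelial and stromal probes, the latter miR-126-3p, miR-143-3p and miR-145-5p. Detected on no array were 1 blood, 1 endothelial and stromal, 1 muscle, 1 neural and 3 ciliated epithelial probes, against 623 of all human probes. The ciliated epithelial probes were miR-34b-3p, miR-34c-5p, miR-449a, miR-449b-5p and miR-449c-5p, so this list overlaps the members reported here.

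miR-34a-5p was the only member clearly above the blank spots. Its foreground was 335, 369 and 363 intensity units on the cisplatin arrays, against 280, 325 and 288 on the control arrays. Every cisplatin array was above every control array, as was so for 9.57% of the 324 probes tested below. The probe's rank, taken from the same intensities, was 121, 136 and 129 of 2019 after cisplatin, against 158, 143 and 178 in control. Rank 1 is the brightest, and the share of probes whose ranks separate the groups was not counted. In units of the blank spots' SD the signal stood 12.2, 8.82 and 14.06 SD above the blank mean after cisplatin, and 6.97, 8.36 and 7.63 in control. On replicate 2 of each group 0.108% of the blank spots were as bright as the probe or brighter, and on the other 4 arrays 0% were.

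miR-34a-3p, the other arm of the same hairpin, was detected on 0 of 6 arrays. Its foreground was 208, 233 and 206 on the cisplatin arrays, against 196, 219 and 219 on the control arrays. These groups overlapped, and the values lay within the range of the blank spots.

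miR-34b-5p was close to the limit. Its foreground was 194, 216 and 231 on the cisplatin arrays, against 226, 249 and 238 on the control arrays. It was detected on 1 of 3 cisplatin arrays, replicate 3, and on 3 of 3 control arrays, where it stood 2.49, 2.69 and 2.93 SD above the blank mean. The raw groups overlapped, since cisplatin replicate 3 was brighter than control replicate 1. The 3p arm, miR-34b-3p, had 196, 222 and 198 after cisplatin, against 205, 220 and 232 in control, and was detected on 1 array only, control replicate 3.

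Both arms of miR-34c were detected on 0 of 6 arrays. The foreground of miR-34c-5p was 201, 211 and 213 on the cisplatin arrays, against 210, 229 and 222 on the control arrays. That of miR-34c-3p was 190, 219 and 202 after cisplatin, against 218, 218 and 212 in control. Of the 3 known products of the chromosome 11 locus besides miR-34b-5p, none was thus above the limit on all arrays of a group.

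The authors' deposited table, which lists a probe only above a limit of its own, holds few of the members. It lists miR-34a-5p on 6 of 6 arrays. It lists miR-34b-5p at 26.9 on cisplatin replicate 3 and at 30, 33.8 and 34.3 on the control arrays. miR-34a-3p is listed on cisplatin replicates 1 and 2, at 22.6 and 23, and on no control array. miR-34b-3p is listed on control replicate 3 (27.7) and miR-34c-3p on control replicate 1 (22), while miR-34c-5p is listed on no array. The median of the listed probes was 31 on every array, so that miR-34a-5p lay well above it and the other members near or below it.

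**Figure D1:**
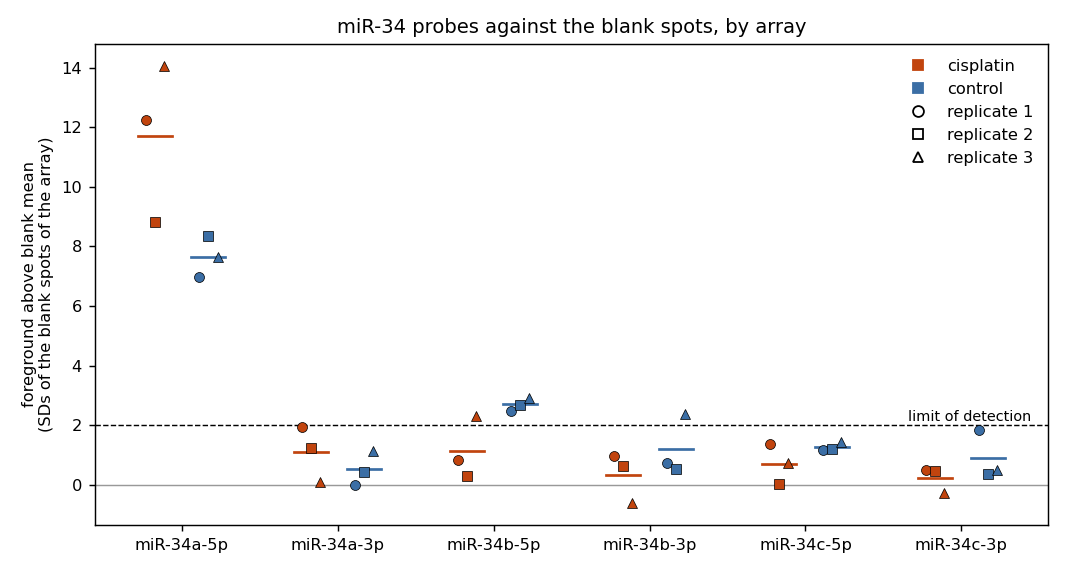
Foreground intensity of the 6 miR-34 probes above the mean of the blank spots, in SDs of the blank spots of the same array, for the 3 cisplatin arrays (left of each pair) and the 3 control arrays (right); symbols mark the replicate number, short lines the group mean and the dashed line the limit of 2 SD. Only miR-34a-5p stands far above the limit, at 6.97 to 14.06 SD, and miR-34b-5p crosses it on all control arrays but on 1 cisplatin array.

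The comparison asked whether miRNA levels differ after cisplatin, the question that the series names. Intensities were background-corrected, quantile-normalized and put on the log2 scale, and groups were compared with limma over 324 probes, those detected on every array of the cisplatin group, of the control group or of both. In this fit 1 probe passed an adjusted p of 0.05, which is 0.309% of those tested, and with the replicate number as a block 0 passed (57 at an unadjusted p under 0.05). It was miR-1304-3p, and none of the miR-34 probes passed. Of the 6 members 2 were tested, miR-34a-5p and miR-34b-5p. The other 4 were measured at or near the blank level, and their values come from a fit over all 2019 probes, in which 0 probes passed (0%) and 97 (4.8%) had an unadjusted p under 0.05.

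On the log2 scale miR-34a-5p averaged 7.84 ± 0.080 in cisplatin and 7.53 ± 0.125 in control arrays (SD, n = 3 each). The log2 fold change was 0.31 (SE 0.0835, 95% interval 0.11 to 0.52), a 1.24-fold difference, with a limma adjusted p of 0.146. The difference was therefore not past the threshold over the probes tested. In the same fit its unadjusted p was 0.0108, and 15.7% of the tested probes had one under 0.05, 8.02% with a higher and 7.72% with a lower level after cisplatin, and it had the 15th highest fold change and the 24th smallest p of 324. Its normalized values did not overlap between the groups, which was so, in the higher direction, for 8.64% of the tested probes, and for 9.57% in raw foreground.

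Within same-numbered pairs miR-34a-5p was higher in the cisplatin array by log2 differences of 0.41, 0.12 and 0.42 for numbers 1, 2 and 3. Since the groups did not overlap, any pairing of the arrays would give this direction. The scanner data give each array a number headed Cell, which is read here as its position on a slide. By this number replicate 2 of both groups lay at positions 2 (cisplatin) and 1 (control). The other arrays lay at positions 4 (cisplatin) and 3 (control). The log2 difference was thus 0.12 at positions 1 and 2 and 0.41 at positions 3 and 4, and with this division as a block the fold change was 0.31 (SE 0.0903, limma adjusted p = 0.238). No single position held both groups, so position and treatment cannot be told apart. Blank spots in the probe's own block of the array had medians of 191.5, 208 and 207.5 after cisplatin, against 201.5, 203.5 and 203.5 in control, and these groups overlapped.

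The size of the difference rests on how the background is removed. The authors' deposited values, which subtract about the mean of the blank spots and leave no offset, were 141.5, 158.7 and 161.8 for miR-34a-5p after cisplatin, against 84.2, 104.5 and 88.8 in control. Here too the groups did not overlap, but these values are rescaled from the same foreground intensities. The means were 154 ± 10.9 and 92.5 ± 10.6 (SD, n = 3 each), a ratio of 1.67. In limma on the log2 of those values the fold change was 0.74 (SE 0.216, adjusted p = 0.551 over 408 probes), and the median of all probes tested there was 0.11. The offset of 50 in the main processing shrinks the fold of a probe this close to the background. With an offset of 16 the log2 value was 0.38, and without any background correction it was 0.21.

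miR-34b-5p averaged 6.78 ± 0.132 in cisplatin and 7.06 ± 0.038 in control arrays on the normalized log2 scale (SD, n = 3 each). The log2 fold change was -0.28 (SE 0.079, 95% interval -0.48 to -0.083, limma adjusted p = 0.167) and did not pass. Its unadjusted limma p was 0.0139, where 15.7% of the tested probes had one under 0.05. It had the 14th lowest fold change and the 26th smallest p of 324. Its normalized values, 6.67, 6.75 and 6.93 after cisplatin against 7.04, 7.11 and 7.04 in control, did not overlap, as was so in the lower direction for 10.2% of the tested probes. The probe entered the test only through the control group, where it was brighter, so the filter favoured a difference in this direction. Same-numbered pairs gave log2 differences of -0.37, -0.36 and -0.11. At slide positions 1 and 2 the value was -0.36, at positions 3 and 4 it was -0.24, and with the division as a block the adjusted p was 0.278.

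**Figure D2:**
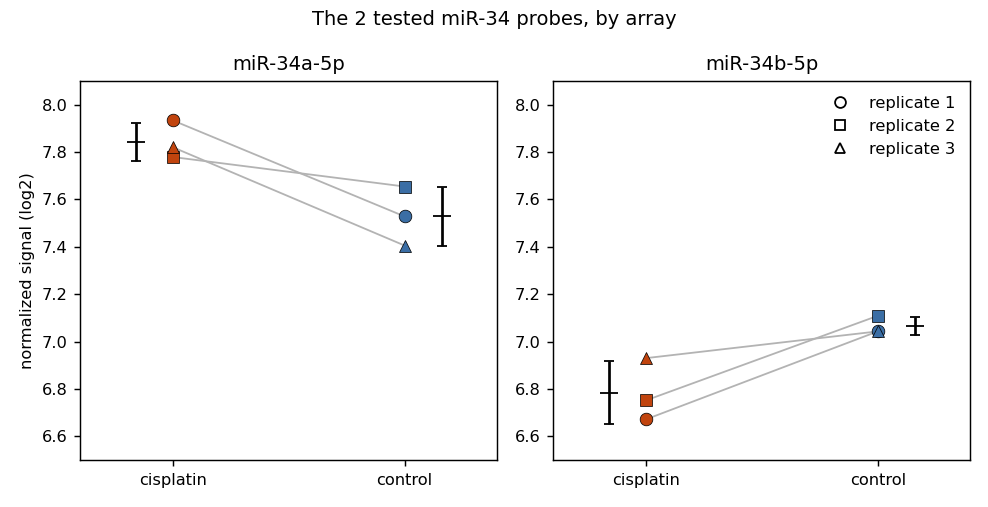
Normalized log2 signal of miR-34a-5p (left panel) and miR-34b-5p (right panel) on the 3 cisplatin and 3 control arrays; grey lines join arrays of the same replicate number, and bars show the group mean and SD. Cisplatin arrays lie above control arrays for miR-34a-5p and below them for miR-34b-5p, without overlap, and neither difference passed the adjusted threshold.

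The 5p arms of miR-34a and miR-34b thus lay on opposite sides of 0 although their sequences differ by 4 edits. Within 1 array a common scale factor cancels from the gap between 2 probes, but quantile normalization is not such a factor. That gap, miR-34a-5p minus miR-34b-5p on the log2 scale, was 1.26, 1.03 and 0.89 on the cisplatin arrays, against 0.49, 0.55 and 0.36 on the control arrays. The gap was wider on every cisplatin array than on any control array, by 0.595 on average. This separation follows from the values above, where neither probe overlapped between the groups and the directions were opposite. The size of the difference in gap moved with the normalization and with the background handling. It was 0.707 without normalization between arrays or with median scaling, and 0.583 with cyclic loess. It was 0.328 without correction, 0.77 with an offset of 16, 0.785 with plain subtraction and 2.29 with the blank mean subtracted. It stayed above 0 in each of these, as it must where the 2 fold changes keep opposite signs. Since both probes were chosen with their values known this is a description without a test. The brightness of different probes depends on the probe, so the gap does not compare the amounts of the 2 miRNAs.

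The other 4 members had intervals that include 0. miR-34a-3p had a log2 fold change of 0.14 (SE 0.137), on the same side as its 5p arm. miR-34b-3p stood at -0.076 (SE 0.134), miR-34c-5p at -0.12 (SE 0.113) and miR-34c-3p at -0.11 (SE 0.121). Their limma adjusted p-values were 0.955 for both arms of miR-34c and for miR-34a-3p and 0.968 for miR-34b-3p. Leaving out 1 array at a time gave values from 0.067 (without cisplatin replicate 2) to 0.25 (without cisplatin replicate 3) for miR-34a-3p. For miR-34c-5p they ran from -0.17 (without cisplatin replicate 1) to -0.063 (without cisplatin replicate 2), and for miR-34c-3p from -0.16 (without cisplatin replicate 2) to -0.031 (without control replicate 1). Those of miR-34b-3p ran from -0.13 to 0.025 and so crossed 0. The 95% interval of miR-34c-5p runs from -0.38 to 0.14. At this signal no difference was detected, and the size of difference that could have been detected was not estimated. The intervals apply to the compressed scale of the main processing, not to the amount of RNA.

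**Figure D3:**
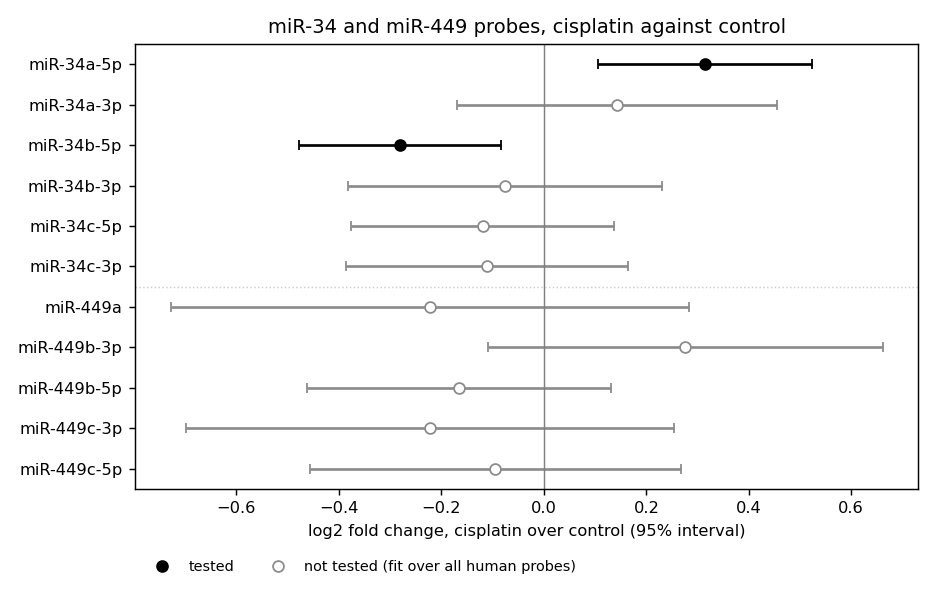
Log2 fold change, cisplatin over control, with its 95% interval for the 6 miR-34 probes (upper part) and the 5 miR-449 probes (lower part); filled points were tested among 324 probes and open points come from the fit over all 2019. The intervals of miR-34a-5p (0.11 to 0.52) and miR-34b-5p (-0.48 to -0.083) leave out 0 before adjustment, and all other intervals include it.

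The other miRNAs with these seeds did not enter the test. miR-449a and the arms of miR-449b and miR-449c, known from ciliated cells, were not detected on all arrays of either group, and 0 of 5 were tested. miR-449a had a foreground of 164, 209 and 206 on the cisplatin arrays, against 178, 230 and 224 on the control arrays, with a log2 fold change of -0.22 (SE 0.222). miR-449b-5p had 181, 215 and 210, against 212, 239 and 216 in control, and stood at -0.17 (SE 0.13). miR-449c-5p, with the seed of miR-34b-5p, was detected on 1 cisplatin and 2 control arrays and stood at -0.095 (SE 0.159). miR-2682-5p, the other miRNA with that seed, ranged from 180 to 234 after cisplatin and from 208 to 222 in control, with a log2 fold change of -0.018. Of the 3p arms of miR-449, miR-449b-3p stood at 0.28 (SE 0.169) and was detected on no array. miR-449c-3p stood at -0.22 (SE 0.209) and was detected on control replicate 1 only. Among the probes that carry the seed of miR-34a-5p in the sequences above, miR-34a-5p was the 1 detected on all 6 arrays.

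Other miRNAs act on the same messages as the family. Of 16 reported to repress MYC, CDK4, CDK6 or CCND1, as miR-34a does for several of them, 9 were tested, 8 of them with values above 0 and 1 below. Their median log2 fold change was 0.13, against -0.012 over all 324 tested probes, of which 47.8% were positive, and 0 passed in either direction. miR-24-3p, which targets MYC and cell cycle genes, had the highest value among the named ones at 0.39 (SE 0.109, limma adjusted p = 0.167). It was followed by miR-29a-3p (0.30, SE 0.158), miR-16-5p (0.13, SE 0.0992), miR-29b-3p (0.13, SE 0.138), let-7a-5p (0.082, SE 0.0544) and miR-15a-5p (0.061, SE 0.118). The value below 0 was that of let-7c (-0.20, SE 0.0887). The list holds several members of 1 family, as for miR-29 and miR-15/16, so its probes are not separate observations. The difference between miR-34a-5p and this list was not tested.

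The probes most like miR-34a-5p over the 6 arrays, by Pearson correlation of normalized log2 values, were the shared probe of miR-365a-3p and miR-365b-3p (r = 0.973), miR-4463 (0.947) and miR-92b-5p (0.939). Their log2 fold changes were 0.20, 0.30 and 0.15. For miR-34b-5p they were miR-4737 (r = 0.967, log2 fold change -0.32), miR-92a-3p (0.942, -0.21) and miR-17-3p (0.912, -0.28). The 6 arrays hold both groups, so each r contains the group difference. The correlation between miR-34a-5p and miR-34b-5p was -0.783 over the same arrays. Both share the array and its normalization.

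**Figure D4:**
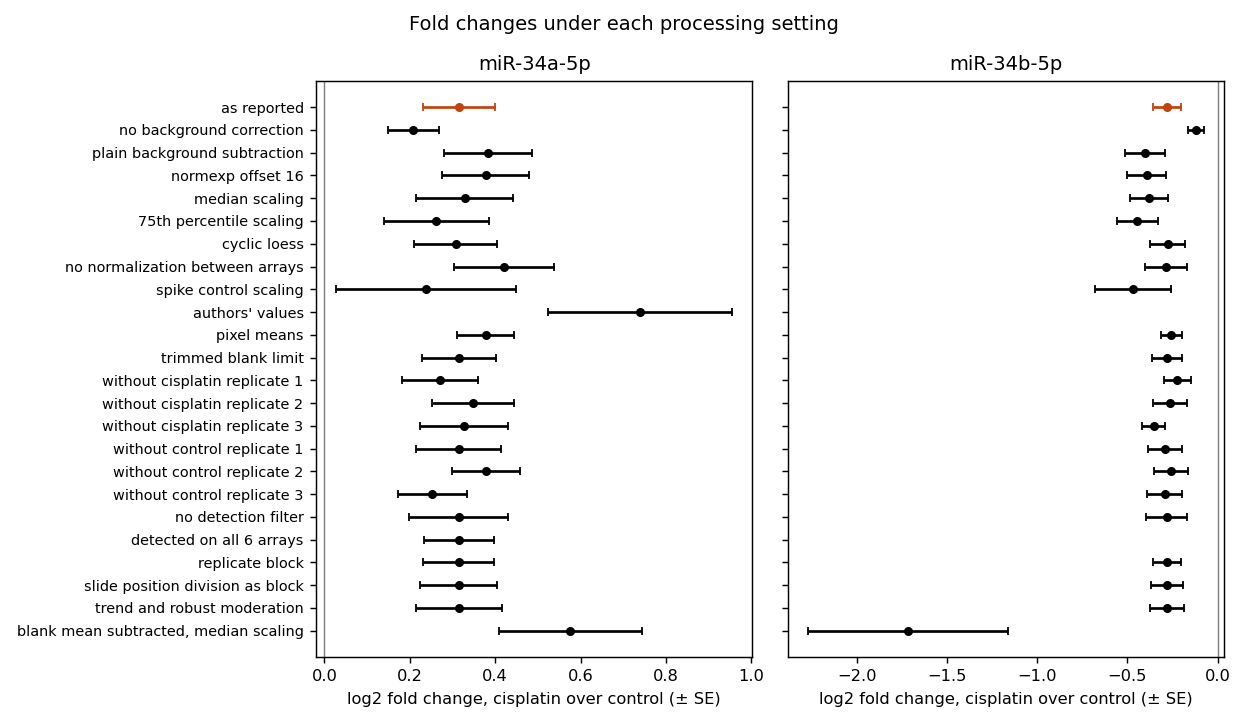
Log2 fold change, cisplatin over control, of miR-34a-5p (left panel) and miR-34b-5p (right panel) with its SE under each processing setting; the first row, in orange, is the value as reported, and a missing point means that the setting gave none. miR-34a-5p stays above 0 in every setting shown, from 0.21 to 0.74, and miR-34b-5p below 0, from -0.12 to -1.71, and the horizontal scales of the panels differ.

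Over the 23 other settings in that plot miR-34a-5p kept its direction, and its limma adjusted p ranged from 0.0735, with pixel means in place of pixel medians, to 0.941 without a detection filter. Without 1 array at a time the log2 fold change ranged from 0.25 (without control replicate 3) to 0.38 (without control replicate 2). For miR-34b-5p 21 other settings gave a value, all below 0, with adjusted p from 0.114 with median scaling to 0.941. For both probes part of these settings could not have turned the sign. The blocks, the moderation, the detection filters and the trimmed blank limit leave the value as it is. Leaving out 1 array cannot turn the sign where the normalized groups do not overlap. The value of -1.71 arose where the mean of the blank spots was subtracted, which leaves this probe 5.4 to 26.1 intensity units after cisplatin, against 30 to 35.9 in control.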

How the data were processed

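Per the labels' protocols, total RNA of HuH7 cells was labelled with Hy5. The deposited scanner files hold linear intensity, per the file headers the pixel median, mean and SD of each of 3200 spots and of its local background, with flag 0 throughout. The scanner used is not given in the sources used here. Values in the authors' deposited table are intensity as well. Comparison with the scanner files shows a foreground median less about the blank mean, over 1 factor per array (largest residual 5.4e-06). It lists 698 to 988 probes per array.

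Pixel medians were background-corrected by normexp with an offset of 50. The 2019 human probes, 15 of them with several names, were then quantile-normalized and tested on the log2 scale with lmFit and eBayes (residual degrees of freedom 4, prior 1.52) in limma 3.58.1 under R 4.3.3, with Benjamini-Hochberg adjustment at 0.05. The steps were tested on simulated data, with changes placed only in probes well above the blank spots. Of the members only miR-34a-5p was that bright, so the simulation does not cover changes in the others. Figures were drawn with matplotlib 3.10.9. Sequences and coordinates are RefSeq's, GRCh38.p14. The number of arrays limits the precision.

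The members, lists and alternatives were chosen with earlier results of these data known. The rule for named miRNAs takes all miR-34 and miR-449 probes, up to 6 tested members of each list by mean signal, 3 probes most alike per tested member and those past the threshold. Results that need an item withheld from this text are not reported here. miR-2682-5p and let-7c were added after their values were seen. Same-numbered samples deviated together from their group means (correlations 0.44, 0.235 and 0.204 over the tested probes for numbers 1, 2 and 3), each above 0.1, so the labels' numbers were taken to pair the samples. Samples of different numbers had correlations of -0.345 to 0.229, the highest between cisplatin replicate 2 and control replicate 3. That value is above the one of matched pair 3 and close to that of matched pair 2, so pairing is not shown for these numbers. The main fit did not use the pairing, and the replicate block was an alternative to it.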

Additional observations from a re-analysis of the deposited data

How the results depend on the processing

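The mean of the blank spots subtracted was a setting chosen after seeing the data. The number of probes past the threshold was 1. It was 3 without background correction, 3 with median scaling, 2 with the 75th percentile, 4 with cyclic loess, 2 with the blank mean subtracted and 5 at an adjusted p under 0.10. It was 0 without normalization between arrays, with spike control scaling, with the authors' values, with pixel means, without a detection filter, with detection on all 6 arrays, with the replicate block and with trend and robust moderation, where limma gave 33, 13, 30, 39, 97, 39, 57 and 38 probes at an unadjusted p under 0.05. Leaving out 1 array, with the tested probes held fixed, gave 0 to 3, with 3 without cisplatin replicate 2, 2 without control replicate 1 and 0 without any of the others. No miR-34 probe passed under any setting. The replicate block gave miR-34a-5p a limma adjusted p of 0.206 and miR-34b-5p one of 0.213, and changed no call but that of miR-1304-3p. Over all tested probes the median log2 fold change was 0.11 in the authors' values and -0.11 with spike control scaling, against -0.012 in the main fit. In the other settings it lay between 0.11 and -0.11. Signs turned for miR-34a-3p with the 75th percentile (-0.026) and spike control scaling (-0.050), both 0.061 once the median of all tested probes is subtracted. They also turned for miR-34b-3p without cisplatin replicate 3 (0.025) and without control replicate 3 (0.0044), with a range of -0.13 to 0.025 when 1 array was left out, and for miR-449c-5p without control replicate 2 (0.0060, range -0.26 to 0.0060). The cause was not tested. The replicate block, the position block, moderation, the detection filter and the trimmed blank limit cannot move the value of a single probe. Over 20 other settings the median of the miRNAs that repress MYC or cell cycle genes ranged from 0.075 to 0.33. All members but miR-34a-5p lie so close to the blank spots that signal over background limits what can be said of them.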
